A study of Homo sapiens with 2 samples.

Results

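The genes described here are CIITA, NLRC5, RFX5, RFXAP and RFXANK, 5 of the 36601 genes counted, taken by symbol from the gene rows of the deposited matrix. CIITA and NLRC5 are the transactivators of MHC class II and class I genes. RFX5, RFXAP and RFXANK are the 3 subunits of the RFX complex that holds them at promoters. HLA-DRA, a class II chain, and B2M, the light chain shared by class I molecules, are given beside them as their best known targets.

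The cells were OVCAR5, an established human ovarian carcinoma line, grown as tumours in NSG-B2m-/- mice. These are immunodeficient hosts without mature T, B and NK cells that still have mouse myeloid cells, and they lack the mouse B2m gene. The tumour cells carried a reporter that senses interferon gamma (IFNg) and were sorted as CFP+, which the labels call bystander cells. Per the pool's description, cytokine was injected into the tumour: 3 tumours were given TNFa (10 ng/ml) and 2 were given IFNg (100 ng/ml) together with TNFa at the same dose, all for 6 h. IFNg alone, at the same 100 ng/ml, was given to 2 tumours for 24 h and to 1 for 48 h. The unexposed controls were 2 tumours each at 6 h and 24 h, and 1 at 48 h. The treatment field of the gene expression library instead reads as a culture without stimulus, and that of the hashtag library as TNFa alone, so the fields and the list disagree.

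All 13 tumours were marked with hashtag antibodies, pooled and run as 1 single-cell library. Cells carried hashtags in 13 pairs, written as HTO2+HTO8 and the like. The sources used here do not say which pair was which tumour or treatment. So the pairs are described 1 by 1, no exposed tumour is compared with an unexposed one, and no p-value was computed. A level is the count of UMIs (captured RNA molecules) of a gene per 1000000 UMIs of the pair, written CPM. The 95% intervals are exact and hold counting error alone, not the spread between tumours. The 13 pairs held 2994 cells that passed the filter, 110 to 507 per pair, with 765923 to 5058403 UMIs per pair and median depths of 6434 to 9450 UMIs per cell. Of the barcodes of a pair, 24.3% (HTO3+HTO6) to 58.2% (HTO4+HTO7) passed. In 3′ UMI data a level depends on how well each RNA is captured, so levels of different genes are not ranked against each other.

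CIITA and NLRC5 are proteins of the NOD-like receptor family that do not bind DNA themselves. They dock on a platform of the RFX complex, NF-Y and CREB-type factors, which sits on the X and Y boxes in the promoters of MHC genes. In most cells that are not professional antigen presenting cells CIITA is off until IFNg, through JAK kinases and IRF1, switches it on, and class II genes follow. The RFX subunits are made in most cells, and inherited loss of any of them, or of CIITA, removes class II from the cell surface.

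In GENCODE 29 on GRCh38, CIITA lies at chr16:10866222-10943021 on the plus strand and NLRC5 at chr16:56989485-57083531, also on the plus strand. RFX5 lies at chr1:151340640-151347357 on the minus strand, RFXAP at chr13:36819224-36829104 on the plus strand and RFXANK at chr19:19192229-19201869 on the plus strand. HLA-DRA is at chr6:32439842-32445046 and B2M at chr15:44711487-44718877, both on the plus strand. CIITA has 14 annotated transcript starts and NLRC5 has 28, and counts at the 3′ end do not show which start was used.

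The promoter stretches below show what these proteins act through. They come from RefSeq windows on GRCh38.p14 that run from 250 bases before to 50 after a gene's start. RFX5, RFXAP and RFXANK matched the table. CIITA, NLRC5 and HLA-DRA had no window there. Of the class II genes 10 of 11 matched, and of the class I genes 9 of 11. The first 4 stretches hold an X-like stretch, GNNACNNNTG, and, 20 to 26 bases further on, ATTGG, which is CCAAT (the NF-Y motif) read on the other strand. Capitals mark both.

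HLA-DRB1: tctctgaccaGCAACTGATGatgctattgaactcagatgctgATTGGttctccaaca
HLA-DQB1: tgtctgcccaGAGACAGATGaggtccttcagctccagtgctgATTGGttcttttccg
HLA-DMA: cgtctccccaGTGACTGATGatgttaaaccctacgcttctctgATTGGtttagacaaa
B2M: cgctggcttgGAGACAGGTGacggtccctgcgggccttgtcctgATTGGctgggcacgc

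These lie at chr6:32589880-32589936, chr6:32666731-32666787 and chr6:32953162-32953219 on the minus strand, and for B2M at chr15:44711424-44711482 on the plus strand. All 4 lie upstream of the gene's start. Searched on both strands, this spacing of the X-like stretch and CCAAT was present in windows of 0.374% of 27305 genes. It was found in 3 of the 10 class II genes (those shown) and 2 of the 9 class I genes (B2M and HLA-B). The letters were chosen with these promoters in view, so the shares describe and do not test.

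The next 3 stretches show the CCAAT and ISRE-like matches of RFX5, with B2M beside them. For B2M and the second RFX5 stretch, capitals mark an ISRE-like match, GAAANNGAAA on either strand, the element through which IRF proteins bind. For the first RFX5 stretch they mark CCAAT.

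B2M: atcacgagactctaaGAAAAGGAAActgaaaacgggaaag
RFX5: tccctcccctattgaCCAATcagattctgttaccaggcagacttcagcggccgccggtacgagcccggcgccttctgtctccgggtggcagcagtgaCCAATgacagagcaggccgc
RFX5: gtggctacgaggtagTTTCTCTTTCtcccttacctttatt

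The B2M stretch is chr15:44711358-44711397 on the plus strand. The RFX5 stretches are chr1:151347328-151347444 and chr1:151347182-151347221 on the minus strand, from the windows of different starts. Among all genes with a window, 39.7% held CCAAT and 4.38% held the ISRE-like match. The windows of RFXAP and RFXANK held neither, nor TTCNNNGAA, the GAS-type letters (a gamma-activated site) found in 9.38% of genes; the RFX5 windows did not hold those letters either. The X-like stretch alone, present in 40.4% of genes, was found in windows of RFX5 and RFXANK, and CACGTG, an E box present in 8.77%, in RFX5. A match in these windows is a match of letters and not a measured site.

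CIITA was high in 4 pairs and at 6.04 CPM or less in the other 9. Its level was 105 CPM (195 UMIs; 91.1 to 121) in HTO2+HTO8, 68.7 CPM (177 UMIs; 58.9 to 79.6) in HTO2+HTO9, 35.0 CPM (52 UMIs; 26.2 to 45.9) in HTO4+HTO8 and 44.4 CPM (34 UMIs; 30.7 to 62.0) in HTO4+HTO9. Next came HTO3+HTO6 at 6.04 CPM (6 UMIs), HTO2+HTO7 at 5.90 (21 UMIs), HTO2+HTO5 at 3.16 (16 UMIs), HTO2+HTO6 at 2.999 (11 UMIs) and HTO3+HTO9 at 2.24 (3 UMIs). The lowest were HTO4+HTO7 at 1.03 (3 UMIs), HTO3+HTO7 at 0.736 (1 UMI), HTO4+HTO6 at 0.464 (1 UMI) and HTO3+HTO5, where no UMI was counted in 140 cells. With HTO3+HTO5 set to the 3 UMIs that a count of 0 allows, CIITA in HTO2+HTO8 was 45.9 times as high. The interval of 15.5 to 224 treats these 3 UMIs as counted, and a count of 0 sets no upper limit to the ratio. Over HTO3+HTO7, with 1 UMI counted, CIITA in HTO2+HTO8 was 143 times as high. With each cell thinned to 4000 UMIs, HTO2+HTO8 was 20.1 times (6.64 to 99.6) HTO3+HTO7, which was then at 0 and set to the same 3 UMIs. A pair set to 3 UMIs gives a smaller ratio than a pair of like depth with 1 UMI counted.

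The order of the 4 high pairs was partly resolved. CIITA in HTO2+HTO8 exceeded HTO2+HTO9 by 1.53-fold (1.246 to 1.89), and HTO2+HTO9 exceeded HTO4+HTO9 by 1.55-fold (1.07 to 2.30). HTO4+HTO9 and HTO4+HTO8 were not separated beyond counting error, with a ratio of 1.27 (0.798 to 1.99). The step down to HTO3+HTO6 was 5.80-fold (2.49 to 16.5). Below it no neighbouring pairs in the order were separated.

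The signal was spread over many cells. In HTO2+HTO8, 96 of 185 cells (51.9%; exact Clopper-Pearson interval 44.4 to 59.3) had a CIITA UMI, of which 43 had 1, 24 had 2 and 29 had 3 or more. The share was 42.3% in HTO2+HTO9, 22.7% in HTO4+HTO9 and 18.8% in HTO4+HTO8. In the other pairs it was 0% to 5.11%, and the count of 0 in HTO3+HTO5 leaves an upper bound of 2.60%. When each cell was thinned to 4000 UMIs, which left out 186 of 2994 cells, the 4 shares were 34.1%, 23.6%, 18.9% and 13.8%, and no other pair exceeded 2.096%. Free RNA of the pool may reach the cells of every pair, and its part in these counts was not tested. HTO3+HTO5, at a median of 8686 UMIs per cell against 9147 in HTO2+HTO8, had the lowest CIITA share. No cell in a low pair had more than 2 CIITA UMIs, while 1 cell of HTO2+HTO8 had 6.

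Marker genes of cells that express CIITA without IFNg, B cells and dendritic cells, were almost absent. Counts were of human genes on the GRCh38 build, and host cells would be mouse cells. The hosts also lack mature T, B and NK cells. Low counts were thus largely fixed by the design, and they do not show which cells held the CIITA RNA. The B cell markers totalled 14 UMIs over all pairs, with MS4A1 at 0, and the dendritic cell markers 3 UMIs, with 4 of 6 genes at 0. The T and NK cell markers totalled 2 UMIs and the pan-leukocyte gene PTPRC 10. The 8 epithelial markers, such as KRT8 and KRT18, summed to 3721 CPM in HTO2+HTO8, their lowest pair, and 7540 CPM in HTO4+HTO6. KRT18 and KRT8 made up most of this, with 1827 and 1010 CPM in HTO2+HTO8, while CDH1 had 80 UMIs in all. The fibroblast markers summed to 36.0 CPM in HTO3+HTO5, their highest pair, and the endothelial markers to 6.87 CPM at most. The 7 macrophage markers summed to 40.5 to 72.5 CPM, mostly CD68, LYZ and CD14, with FCGR3A at 0 and CSF1R at 3 UMIs. Of them TYROBP was highest in HTO2+HTO8 (9.73 CPM, 18 UMIs) and AIF1 in HTO2+HTO9 (4.66 CPM, 12 UMIs), while both were at 2.02 CPM or less in HTO4+HTO8 and HTO4+HTO9. TYROBP was also at 7.05 CPM (7 UMIs) in HTO3+HTO6. Without the 53 cells that had a UMI of AIF1, TYROBP or PTPRC, genes chosen after their values were seen, CIITA was at 106 CPM in HTO2+HTO8 and 68.7 CPM in HTO2+HTO9.

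**Figure D1:**
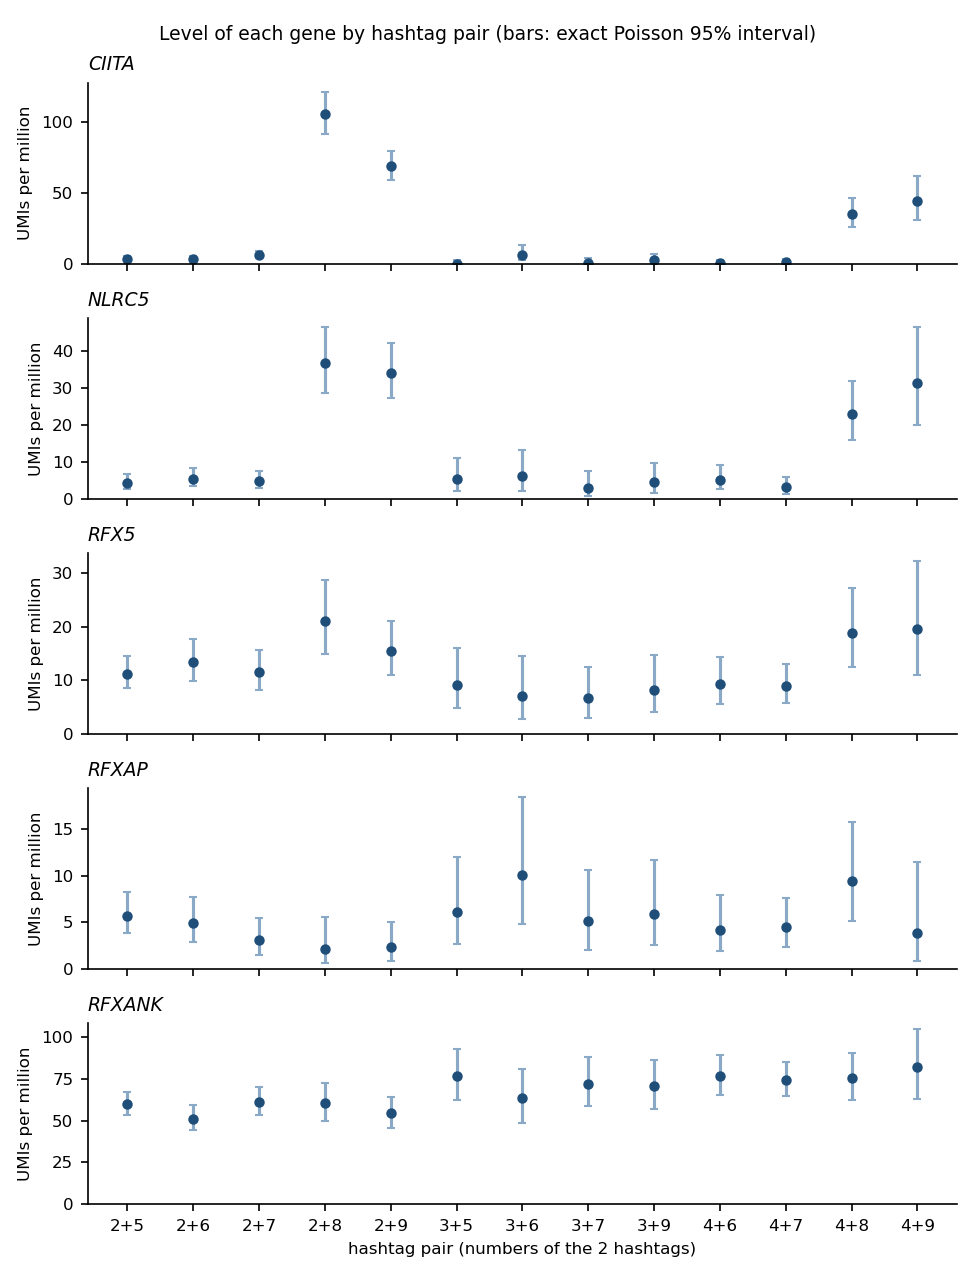
Level of each gene in each hashtag pair, in UMIs per 1000000; points are the levels, bars the exact Poisson 95% intervals, and each panel has its own axis from 0. CIITA and NLRC5 stand out in HTO2+HTO8, HTO2+HTO9, HTO4+HTO8 and HTO4+HTO9, RFX5 is highest in the same pairs by a smaller margin, and RFXANK stays between 51.3 and 82.3 CPM.

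NLRC5 was high in the same 4 pairs, on top of a low level in every other one. It reached 36.8 CPM (68 UMIs; 28.5 to 46.6) in HTO2+HTO8, 34.1 CPM (88 UMIs; 27.4 to 42.1) in HTO2+HTO9, 22.9 CPM (34 UMIs; 15.9 to 32.0) in HTO4+HTO8 and 31.3 CPM (24 UMIs; 20.1 to 46.6) in HTO4+HTO9. The other 9 pairs lay between 2.95 CPM in HTO3+HTO7 (4 UMIs) and 6.04 CPM in HTO3+HTO6 (6 UMIs). Unlike CIITA, NLRC5 had a UMI in every pair. The highest pair exceeded the lowest by 12.5-fold (4.66 to 47.1).

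Along the order of the pairs only 1 step of NLRC5 was resolved, that from HTO4+HTO8 to HTO3+HTO6, at 3.79-fold (1.57 to 11.0). So the 4 high pairs could not be ranked by neighbours for NLRC5, in contrast to CIITA, where HTO2+HTO8 stood 3.01-fold (2.21 to 4.17) above HTO4+HTO8. The same ratio for NLRC5 was 1.60 (1.05 to 2.50). An NLRC5 UMI was found in 29.7% of cells in HTO2+HTO8, 26.6% in HTO2+HTO9, 20.0% in HTO4+HTO9 and 15.7% in HTO4+HTO8, against 2.88% to 5.47% elsewhere. At 4000 UMIs per cell the 4 shares were 18.4%, 10.3%, 17.8% and 10.2%.

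RFX5, the DNA-binding subunit of the RFX complex, was counted in all pairs and varied less. Its 4 highest levels were in the same pairs, at 21.1 CPM (39 UMIs; 14.99 to 28.8) in HTO2+HTO8, 19.6 CPM (15 UMIs; 11.0 to 32.3) in HTO4+HTO9, 18.9 CPM (28 UMIs; 12.5 to 27.3) in HTO4+HTO8 and 15.5 CPM (40 UMIs; 11.1 to 21.1) in HTO2+HTO9. HTO2+HTO6, HTO2+HTO7 and HTO2+HTO5 followed at 13.4, 11.5 and 11.3 CPM. The remaining 6 pairs lay between 6.63 CPM in HTO3+HTO7 and 9.27 CPM in HTO4+HTO6. The levels formed a gradient with no resolved step between neighbours, and the ends differed by 3.18-fold (1.52 to 7.47).

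RFXAP, the RFX-associated protein, was rare, with 140 UMIs in all, and did not follow the transactivators. HTO3+HTO6 (10.1 CPM, 10 UMIs) and HTO4+HTO8 (9.43 CPM, 14 UMIs) were highest. HTO2+HTO9 (2.33 CPM, 6 UMIs) and HTO2+HTO8 (2.16 CPM, 4 UMIs), the pairs with most CIITA, were lowest, and HTO3+HTO6 exceeded HTO2+HTO8 by 4.66-fold (1.34 to 20.4). RFXANK, the ankyrin repeat subunit, had 1874 UMIs and the narrowest range of the 5 genes. Its highest level, 82.3 CPM in HTO4+HTO9, was 1.60 times (1.19 to 2.15) its lowest, 51.3 CPM in HTO2+HTO6, with 37.2% to 51.2% of cells showing a UMI. None of the neighbouring pairs was separated for either gene. Highest and lowest pairs were picked from 13, which widens such ratios, and their intervals do not allow for it.

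A ratio of 4 or more between highest and lowest pair was reached by 3 of the 5 genes, CIITA, NLRC5 and RFXAP. Of 13596 genes with 30 UMIs or more, 21.9% reached it, and their median ratio was 2.34. RFXAP was below 4 with other cell filters, at 3.65 (1.72 to 8.63) with none and 1.58 (0.132 to 13.8) with the strictest. With the lower 95% bound of the ratio at 2 or more, 2 of the 5 remained, CIITA and NLRC5, against 10.1% of all such genes.

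HLA-DRA was high where CIITA was, but in another order. HLA-DRA was highest in HTO4+HTO9, at 839.5 CPM (776 to 907). It was at 761 CPM (717 to 807) in HTO4+HTO8, 287 CPM (263 to 312) in HTO2+HTO8 and 187 CPM (171 to 204) in HTO2+HTO9. HTO3+HTO6 followed at 50.4 CPM, then HTO2+HTO6, HTO2+HTO5 and HTO2+HTO7 at 39.3, 32.03 and 31.5 CPM. The other 5 pairs lay between 5.89 CPM in HTO3+HTO7 and 14.2 CPM in HTO3+HTO9. So the same pairs lead for both genes, and their ranks are exchanged: HLA-DRA was 2.65-fold (2.39 to 2.95) higher in HTO4+HTO8 than in HTO2+HTO8.

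Over the 13 pairs CIITA and HLA-DRA had a Spearman rho of 0.907 and a Pearson r of 0.877 on log2(CPM + 10). The 4 high pairs stand apart from the rest, so the pooled value mostly compares these 4 with the 9 others. Within those 9, where CIITA was below 10 CPM, rho was 0.850. Several of them held 3 CIITA UMIs or fewer, and no neighbouring pairs among them were separated for CIITA, so their order is uncertain. CD74, the invariant chain that guides class II molecules, gave 0.923 and 0.900 with CIITA. Of 11086 genes with 100 UMIs or more, 0.352% had a rho with HLA-DRA at or above that of CIITA. For RFX5 and HLA-DRA rho was 0.786, and 0.400 in the 9 pairs. For RFXAP it was -0.21, and for RFXANK -0.18 over all pairs but -0.78 in the 9. All pairs come from 1 library, share its free RNA and differ in depth, and 23 such relations were computed.

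All 11 class II genes, with CD74 counted as 1 of them, had a ratio of 4 or more between highest and lowest pair. The lower bound of all 11 was 2 or more. Of all genes with 30 UMIs or more, 21.9% and 10.1% reached these limits. The median ratio of the class II genes was 75.4, with a pair at 0 set to the limit of 3 UMIs. CD74 ran from 75.0 CPM in HTO3+HTO5 to 2663 CPM in HTO4+HTO9, HLA-DRB1 from 8.10 to 611 CPM and HLA-DPA1 from 2.21 to 415 CPM. In HTO3+HTO6, a pair with 6 CIITA UMIs, HLA-DRB1 was at 121 CPM, above the 107 CPM of HTO2+HTO9. The other class II genes were lower in HTO3+HTO6 than in HTO2+HTO9. CD74 was at 593 against 816 CPM there, and at 292 CPM or less in the other pairs with little CIITA. HLA-DMA, part of the peptide exchange factor, had the highest floor relative to its peak, 22.2 against 222 CPM. The HLA genes resemble each other, so reads may be shared among them and single values are uncertain.

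**Figure D2:**
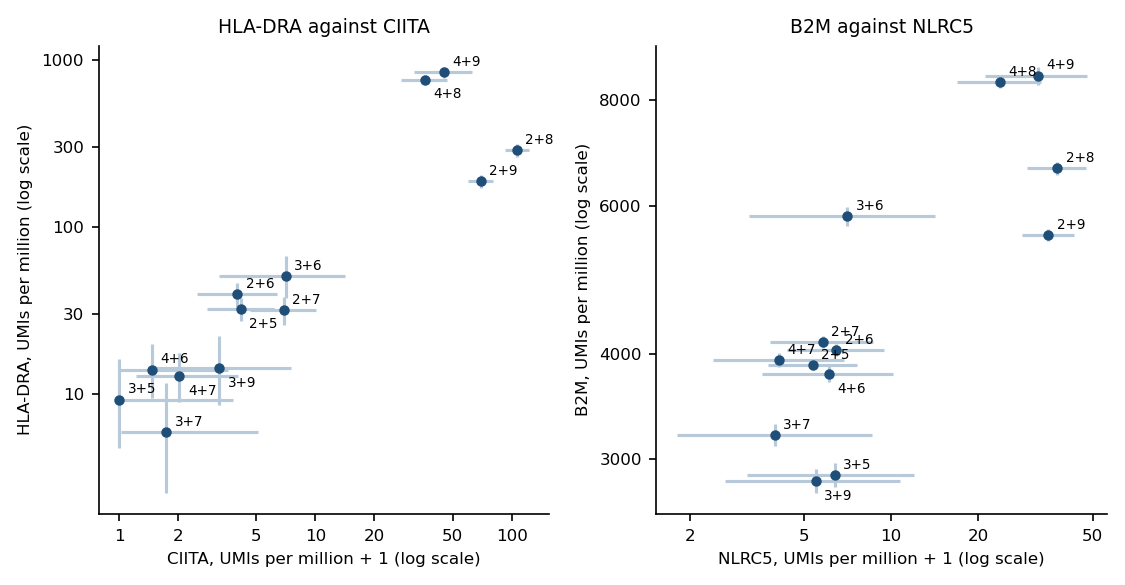
Each point is a hashtag pair, labelled by its 2 hashtag numbers, with 95% Poisson intervals; both axes are logarithmic, in UMIs per 1000000, with 1 added to the transactivator. HLA-DRA tends to be higher with more CIITA across the low pairs too, where CIITA counts are few and neighbours are not separated. B2M in HTO3+HTO6 (3+6) is at 5828 CPM beside an NLRC5 level of 6.04 CPM.

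The exchange of ranks is plain in the number of HLA-DRA UMIs counted per CIITA UMI, a ratio read only between pairs. It was 2.72 (2.31 to 3.23) in HTO2+HTO8 and 2.72 (2.29 to 3.25) in HTO2+HTO9, and 21.7 (16.5 to 29.3) in HTO4+HTO8 and 18.9 (13.4 to 27.6) in HTO4+HTO9. The intervals of the former do not meet those of the latter. Low pairs with 10 or more CIITA UMIs lay between, at 5.33 (3.33 to 8.95) in HTO2+HTO7, 10.1 (6.05 to 18.1) in HTO2+HTO5 and 13.1 (7.10 to 26.8) in HTO2+HTO6. CD74 UMIs per CIITA UMI were 10.3 and 11.9 in HTO2+HTO8 and HTO2+HTO9, and 69.8 and 60.0 in HTO4+HTO8 and HTO4+HTO9.

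Both HTO4+HTO8 and HTO4+HTO9 were above both HTO2+HTO8 and HTO2+HTO9 for 10 of 11 class II genes (all but HLA-DOB) and 9 of 11 class I genes, and for RFXAP and RFXANK among the 5 genes described. Of all 13596 genes, 32.1% showed that order. The reverse order held for CIITA and NLRC5, for TAP1 of the class I genes and for 19% of all genes. These 4 pairs were set side by side after their CIITA levels were seen, and differences of tumour, cytokine and time between them cannot be told apart.

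**Figure D3:**
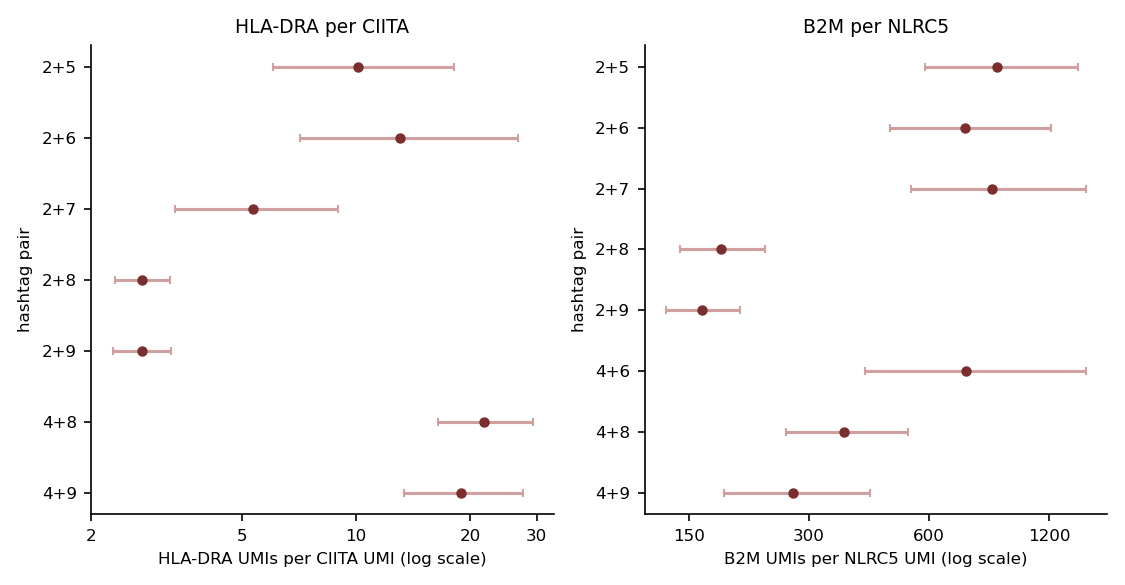
UMIs of the target gene per UMI of its transactivator in each hashtag pair with 10 or more transactivator UMIs, on logarithmic axes with exact 95% intervals. HTO2+HTO8 and HTO2+HTO9 have the fewest HLA-DRA UMIs per CIITA UMI (2.72 each), and the fewest B2M UMIs per NLRC5 UMI (181 and 162).

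For class I, B2M was high in every pair and varied 3.03-fold (2.91 to 3.16), from 2823 CPM in HTO3+HTO9 to 8562 CPM in HTO4+HTO9. HTO4+HTO8 had 8418 CPM, HTO2+HTO8 had 6643 CPM, HTO3+HTO6 had 5828 CPM and HTO2+HTO9 had 5530 CPM. The other pairs were at 4128 CPM or less. HTO3+HTO6 thus ranked above HTO2+HTO9 for B2M, by 1.05-fold (1.02 to 1.09), although its NLRC5 was 5.65-fold (2.50 to 15.8) lower. In HTO3+HTO6 HLA-DRA was the fifth highest at 50.4 CPM with 6 CIITA UMIs in 124 cells, and its share of barcodes passing the filter, 24.3%, was below that of every other pair.

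NLRC5 and B2M had a rho of 0.742 and an r of 0.810 over the 13 pairs, and rho was 0.400 in the 9 pairs with little CIITA. Of 11086 genes, 2.8% had a rho with B2M at or above that of NLRC5. B2M UMIs per NLRC5 UMI were 181 and 162 in HTO2+HTO8 and HTO2+HTO9, 368 and 273 in HTO4+HTO8 and HTO4+HTO9, and 536 to 1273 in the other pairs. TAP1, which encodes a subunit of the peptide transporter, stayed closer to NLRC5. It had 14.6 and 14.2 UMIs per NLRC5 UMI in HTO2+HTO8 and HTO2+HTO9, and 14.4 and 10.8 in HTO4+HTO8 and HTO4+HTO9. Over the other pairs this ran from 6.43 in HTO3+HTO5 to 21.8 in HTO2+HTO7. Of the 11 class I genes 7 had a ratio of 4 or more, 11 had a lower bound of 2 or more, and the median ratio was 5.23. Over all genes with 30 UMIs or more the shares were 21.9% and 10.1%, and the median was 2.34. TAP1 ran from 24.3 to 538 CPM and the immunoproteasome gene PSMB9 from 162 to 1658 CPM.

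Within a pair, cells with a CIITA UMI were set against cells of the same pair without one, where both sides had 20 cells or more. HLA-DRA was at 334 CPM with and 234 CPM without CIITA in HTO2+HTO8, a ratio of 1.43 (1.20 to 1.71). In HTO2+HTO9 it was at 237 and 144 CPM, a ratio of 1.65 (1.37 to 1.98), and in HTO4+HTO8 at 934 and 712 CPM, a ratio of 1.31 (1.15 to 1.498). In HTO4+HTO9 it was 766 and 862 CPM, and the interval of the ratio, 0.888 (0.731 to 1.07), included 1. CD74 gave ratios of 1.42, 1.34, 1.14 and 0.947 in the same order. Cells with a CIITA UMI had somewhat more UMIs, for instance a median of 9202 against 8461 in HTO2+HTO8. At 4000 UMIs per cell the HLA-DRA ratios were 1.40, 1.52 and 1.87 in the first 3 pairs, and in HTO4+HTO9 under 20 cells were left on 1 side. A cell without a CIITA UMI may still express the gene, and cells are not replicates, so these intervals cover counting only.

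For NLRC5 and B2M the direction varied between pairs. In 6 pairs with enough cells, B2M in cells with an NLRC5 UMI was 0.878 to 1.33 times that in cells without. The interval lay below 1 in HTO2+HTO8 (0.930; 0.895 to 0.966) and HTO2+HTO9 (0.878; 0.846 to 0.911), and above 1 in HTO2+HTO5 (1.33; 1.24 to 1.41). The ratios of HTO2+HTO8 and HTO2+HTO9 became 1.01 and 1.00 when cells were thinned to 4000 UMIs. Between the transactivators themselves, the NLRC5 ratio of CIITA-positive to CIITA-negative cells was 1.72 (1.02 to 2.97) in HTO2+HTO8 but 1.10 (0.496 to 2.35) at 4000 UMIs per cell, and the intervals in HTO2+HTO9, HTO4+HTO8 and HTO4+HTO9 included 1.

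**Figure D4:**
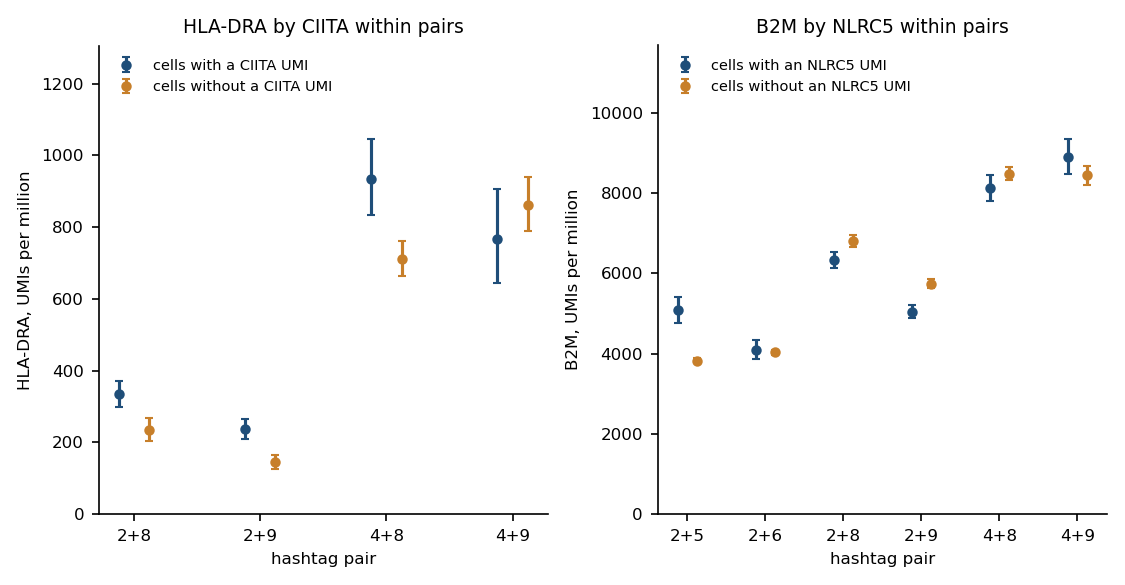
HLA-DRA in cells with and without a CIITA UMI, and B2M in cells with and without an NLRC5 UMI, within hashtag pairs that had 20 or more cells on both sides; points are UMIs per 1000000, bars exact Poisson 95% intervals, axes from 0. HLA-DRA was higher in the CIITA-positive cells of HTO2+HTO8, HTO2+HTO9 and HTO4+HTO8, while B2M differed in both directions.

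Upstream of CIITA, most receptor, kinase and factor genes of IFNg signalling were, like CIITA, higher in HTO2+HTO8 and HTO2+HTO9 than in HTO4+HTO8 and HTO4+HTO9. Of 9 genes 6 had a ratio of 4 or more and 7 a lower bound of 2 or more, against 21.9% and 10.1% of all genes with 30 UMIs or more. Their median ratio was 5.90. For 8 of 9 both HTO2+HTO8 and HTO2+HTO9 lay above both HTO4+HTO8 and HTO4+HTO9, an order shown by 19% of all genes. IFNGR1, IFNGR2 and JAK1 were among these 8 but were higher still in HTO2+HTO6 and HTO2+HTO7, where CIITA was low. IFNGR1 was at 116 and 92.1 CPM there, against 50.8 and 61.7 CPM in HTO2+HTO8 and HTO2+HTO9. IRF1, a factor that IFNg induces, was at 1515 and 1917 CPM in HTO2+HTO8 and HTO2+HTO9, 975 and 1153 CPM in HTO4+HTO8 and HTO4+HTO9, and 86.6 to 354 CPM elsewhere. JAK2, the kinase of the IFNg receptor, was at 63.2, 59.7, 44.5 and 35.3 CPM in these 4 pairs and 3.68 to 13.4 CPM elsewhere. IFNGR2, a receptor chain, was highest in HTO2+HTO6, where CIITA was low, and ran from 47.8 to 163 CPM. JAK1, the partner kinase, ran from 79.6 CPM to 192 CPM in HTO2+HTO7. SOCS1, the feedback inhibitor, ran from 7.66 CPM to 105 CPM in HTO2+HTO9. HTO3+HTO6 had the lowest IRF1 of all pairs at 86.6 CPM.

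Among the partners on the promoter, NFYA, NFYB, NFYC, CREB1 and ATF1, 1 of 5 had a ratio of 4 or more (ATF1, from 6.53 to 26.2 CPM), none a lower bound of 2 or more, and the median ratio was 2.49. The 9 coactivators and chromatin enzymes, such as CREBBP, EP300 and HDAC1, gave 1 of 9 (KAT2B), 0 of 9 and a median of 1.80. Of 7 other NOD-like receptor genes 4 had 30 UMIs or more, 3 of those had a ratio of 4 or more and none a lower bound of 2 or more; NLRX1 ran from 0.766 to 6.74 CPM. NOD2 and NLRC3 totalled 4 UMIs and 1 UMI. Beside these lists, 21.9% of all genes with 30 UMIs or more had a ratio of 4 or more. For a lower bound of 2 or more the share was 10.1%, and the median ratio was 2.34.

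Among 4 other RFX genes, RFX3, a factor best known from ciliated cells, differed most. It was at 61.6 CPM (114 UMIs) in HTO2+HTO8, 41.8 CPM (62 UMIs) in HTO4+HTO8, 38.4 CPM (99 UMIs) in HTO2+HTO9 and 32.6 CPM (25 UMIs) in HTO4+HTO9, and between 9.06 and 18.5 CPM in the other 9 pairs. These are the same 4 pairs that lead for RFX5. Its ratio of highest to lowest was 6.80 (3.46 to 15.2). RFX1, RFX2 and RFX7 ranged up to 15.3 CPM, and the lower bounds of their ratios were below 2.

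The 5 genes most like each member were ranked by Pearson's r of log2(CPM + 10) over the 13 pairs among 11086 genes. For CIITA they were TOP1 (0.984), CXCL11 (0.980), NLRC5 (0.979), CTSS (0.979) and CD274 (0.977). For NLRC5 they were CD274 (0.986), BATF2 (0.983), CIITA (0.979), SECTM1 (0.977) and TRAFD1 (0.977), so each transactivator was among the 5 of the other. CXCL11 encodes a T cell chemokine, CTSS the protease cathepsin S that trims the invariant chain, and CD274 the ligand PD-L1. For RFX5 they were TMEM140, USP30-AS1, C5orf56, TRIM5 and TYMP (0.959 to 0.970). For RFXAP (DTD2 leading at 0.905) and RFXANK (MALL leading at 0.918) the likeness was lower. By Spearman's rho 0 of 5 stayed among the 5 for CIITA, 0 for NLRC5, 1 for RFX5, 0 for RFXAP and 1 for RFXANK, so the ranking within the group of like genes is not firm.

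CIITA overlaps DEXI on the opposite strand, and DEXI had its lowest level, 7.03 CPM (13 UMIs), in HTO2+HTO8, where CIITA was highest, against 29.8 CPM in HTO3+HTO9. CIITA also overlaps AC133065.3, which lies on its own strand. The sources used here do not say whether the counting used strand, so reads of these overlaps cannot be assigned with certainty. RFXANK overlaps BORCS8 and NR2C2AP on the opposite strand, which ran from 11.5 to 27.2 CPM and from 12.3 to 26.5 CPM.

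The 4077 barcodes of these pairs with over 20% mitochondrial UMIs, which the filter left out, gave a second look at the same pool. CIITA was at 157 CPM in HTO2+HTO8, 134 CPM in HTO2+HTO9, 41.1 CPM in HTO4+HTO8 and 71.7 CPM in HTO4+HTO9, and at 10.2 CPM or less elsewhere. NLRC5 was at 56.9, 50.5, 36.2 and 33.2 CPM there, in the same order, and at 13.2 CPM or less elsewhere. HLA-DRA UMIs per CIITA UMI were 1.22 (0.968 to 1.55) and 1.48 (1.23 to 1.77) in HTO2+HTO8 and HTO2+HTO9, and 13.8 (10.8 to 18.0) and 7.98 (6.00 to 10.8) in HTO4+HTO8 and HTO4+HTO9. The order of the pairs in passing and left-out barcodes had a rho of 0.863 for CIITA, 0.786 for RFX5, 0.615 for NLRC5, 0.434 for RFXANK and 0.396 for RFXAP. These barcodes come from the same library and tumours and are no independent replicate.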

How the data were processed

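The authors deposited whole-number counts (UMIs), with no normalisation, for 9083 barcodes: 36601 gene rows plus 10 hashtag rows. Per the file headers the software was Cell Ranger 5.0.1; the submitters' processing notes list Cell Ranger 2.1.1, with the GRCh38 build. A barcode got the pair of its 2 highest hashtags among HTO2 to HTO9 where the second had 20 counts or more and at least 4 times the third. This gave 7485 barcodes in 13 pairs of 50 cells or more, and it was the only treatment of doublets. Cells needed 500 genes and at most 20% mitochondrial UMIs. UMIs were summed per pair and divided by all gene UMIs of the pair. Levels have exact Poisson, shares Clopper-Pearson and ratios exact binomial 95% intervals. A lowest pair at 0 was set to 3 UMIs, and the interval of its ratio was computed as if these had been counted. The ratio and likeness calculations were tested on simulated data. Named genes were the 5 members, HLA-DRA, B2M, up to 4 genes with most UMIs of each list, and the 5 genes most like each member; other genes named, such as HLA-DMA, TAP1, PSMB9, JAK2, SOCS1, NLRX1, RFX3 and DEXI, were chosen after their values were seen. The members and lists were chosen with earlier results of these data known. Of the gene identifiers, 34616 matched GENCODE 29. Alternatives were other cell filters, hashtag rules, thinning and minimums. Tools were numpy 2.4.6, pandas 2.3.3 and scipy 1.17.1 under Python 3.11.15; figures used matplotlib 3.10.9. Columns of other samples numbered 0. Single-gene results of some listed genes are not reported here.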

Additional observations from a re-analysis of the deposited data

Results flagged for a closer look

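Of the 9083 barcodes, 1598 had no hashtag pair and entered none of the comparisons above, and all 5 genes had more UMIs in them than the 3 that a count of 0 allows. CIITA had 220 UMIs there, NLRC5 149, RFX5 144, RFXAP 81 and RFXANK 707. Per 1000000 UMIs these were 18.0 for CIITA, 12.2 for NLRC5, 11.8 for RFX5, 6.63 for RFXAP and 57.9 for RFXANK, each between its lowest and highest level over the pairs.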

How the results depend on the processing

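No paired analysis was possible because 1 pooled library has no replicate numbers. Of 99 alternatives 71 left the value within its interval or range, 26 moved it and 2 reversed it. The following 2 kinds were chosen after seeing the data: barcodes above 20% mitochondrial UMIs alone, and leaving out cells with a UMI of AIF1, TYROBP or PTPRC. The latter moved none of the 5 ranges and neither rank relation. The CIITA range became 309 with up to 50% mitochondrial UMIs and 280 with only barcodes above 20%, where the lowest pair had 1 UMI in place of 0. It was 19.0 (5.99 to 96.9) with the strict filter of 1000 genes and 10% mitochondrial UMIs, which left 400 cells, and 20.1 (6.64 to 99.6) at 4000 UMIs per cell. The RFX5 range was 1.2 with the strict filter, 7.54 at 4000 UMIs per cell and 14.5 above 20%. The RFXAP range, 4.66, was 1.58 with the strict filter, 3.65 with no filter, 3.06 above 20% and 10.5, between other pairs, when thinned. The RFXANK range was 2.82 and 2.23 with the strict filter and above 20%. For CIITA and HLA-DRA rho was 0.769 with the strict filter, 0.857 above 20% and 0.918 without the 2 pairs farthest from the median of HLA-DRA, HTO4+HTO8 and HTO4+HTO9; Pearson's r was 0.877. For NLRC5 and B2M rho was 0.808 above 20% and 0.664 without the same 2 pairs, and r was 0.81. Leaving out 1 pair at a time gave 0.881 to 0.916 and 0.692 to 0.804. Within pairs, HLA-DRA by CIITA gave 1.87 in HTO4+HTO8 when thinned and 1.1 in HTO4+HTO9 with no cell filter. Without the filter some low pairs also had 20 or more cells on both sides, and their direction varied. HLA-DRA by CIITA was 1.81 (1.04 to 2.95) in HTO2+HTO5, 0.388 (0.105 to 1.01) in HTO2+HTO6 and 0.972 (0.476 to 1.78) in HTO2+HTO7. B2M by NLRC5 turned from below 1 to 1.01 (thinned) and 1.02 (no filter) in HTO2+HTO8, and moved to 1.00 and 0.961 in HTO2+HTO9. With no filter it was 1.19 in HTO2+HTO5, 1.1 in HTO2+HTO6 and 1.03 in HTO4+HTO8. Thinned values could not be had for CIITA in HTO4+HTO9, nor for NLRC5 outside HTO2+HTO8 and HTO2+HTO9. The cause of these moves was not tested. Depth limits RFXAP, with 3 to 29 UMIs per pair, and CIITA in the low pairs, with 0 to 3 UMIs in 5 of them.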
